A study of Homo sapiens with 6 samples.

Results

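Integrins are receptors with which cells grip the extracellular matrix, and laminin-332 is a matrix protein that epithelial cells secrete and stand on. The genes described here are ITGA2, ITGA3, ITGA6, ITGAV, ITGB1, ITGB4, ITGB6, LAMA3 and LAMB3, chosen by symbol as 7 integrin subunits and 2 chains of laminin-332. All 9 were listed among the 26195 gene symbols of the 6 libraries, and all 9 passed the filter on low counts. The measurement was Drop-seq, which captures polyadenylated RNA of single cells in droplets and counts molecules by their unique molecular identifiers (UMIs). The cells were PC9, a human line from a lung adenocarcinoma whose growth depends on mutant EGFR, with 1 library per condition.

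Untreated cells had neither virus nor drug, and scrambled cells carried the control lentivirus pLVTHM-shsc-GFP without drug. Each of the other 4 libraries had 2 µM erlotinib, which blocks the EGFR kinase, for 1 day. In one of these the KDM5 inhibitor CPI-455, which blocks removal of histone methyl marks, was given at 6.25 µM for 4 days without virus. Its labels place erlotinib on the day after seeding and also give 1 day of treatment. The other erlotinib libraries carried pLVTHM-shKDM5A-GFP, this virus plus pLVTHM-shKDM5B-GFP, or the KDM5A cDNA virus pLenti-CMV-Hygro-3xFLAG-HA-KDM5A, and erlotinib began on day 4, 5 or 6 after transduction in that order. Serum was 10% after transduction and 5% without it, so virus and serum went together. No library had erlotinib without a KDM5 manipulation.

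An integrin joins 1 alpha and 1 beta subunit, and the pair sets the ligand. ITGA3 with ITGB1, and ITGA6 with ITGB1 or ITGB4, encode receptors for laminins, and the ITGA6 and ITGB4 pair anchors keratin filaments in hemidesmosomes. ITGA2 with ITGB1 encodes a collagen receptor. ITGAV with ITGB6 encodes an epithelial fibronectin receptor that can also activate latent TGF-beta. LAMA3 and LAMB3 encode the alpha and beta chains of laminin-332.

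Cells were kept when they held 500 UMIs or more with no more than 20% from mitochondrial genes. This left between 131 and 1166 cells and between 590091 and 3956647 UMIs per library, with a median of 1493.5 UMIs per untreated cell and of 2985.5 to 3762.5 in the other libraries. Levels are UMIs per 1000000 UMIs of a library's kept cells (CPM), and their exact 95% intervals, given in brackets, cover counting error only. KDM5A CPM were 121 untreated, 81.9 scrambled, 120.2 under CPI-455, 56.4 under KDM5A shRNA, 41.3 in the library labelled KDM5A and KDM5B shRNA and 164 under KDM5A cDNA. KDM5B CPM were 60.4 untreated, 46.4 scrambled, 102 under CPI-455 and 94.9 under KDM5A cDNA. They were 151 (133 to 171) under KDM5A shRNA and 138 (112 to 168) in the double shRNA library. Every erlotinib library thus lay above scrambled cells, and the intervals of the shRNA libraries with erlotinib overlapped. The lower KDM5B that the double label calls for was not seen, so that library is named below by its label only. The 6 epithelial markers were all found in every library, summing to between 7877 and 11787 CPM. The 6 fibroblast, 5 leukocyte and 4 endothelial markers summed to at most 8.27, 2.76 and 12.4 CPM, with COL3A1, DCN, LUM, PTPRC, CD3E, CD79A and KDR at 0 throughout. Among kept barcodes 1 was shared, by CPI-455 and the library labelled KDM5A and KDM5B shRNA.

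Stretches of the LAMA3 and LAMB3 promoters are shown first, because an AP-1 element was found in them and in no other window searched for the 9 genes. The AP-1 element TGANTCA, to which Fos and Jun factors bind, was searched on both strands of the 250 bases before each start site in RefSeq (GRCh38.p14). Windows could be matched for 7 of the 9 genes, 12 windows in all, and not for ITGA3 and ITGB4. The element was found in the LAMA3 window and in 1 LAMB3 window and in no other, against 6.57% of all 35116 windows. It is in capitals in these 30-base stretches, written 5′ to 3′. The element begins 125 and 69 bases before the LAMA3 start (plus strand) and 67 bases before a LAMB3 start (minus strand).
LAMA3, chr18:23872883-23872912: tctggcacaggcTGACTCAtgtgtgaagtt
LAMA3, chr18:23872939-23872968: gccttcctcaccTGAGTCAggcaggcccgg
LAMB3, chr1:209651424-209651453: cgtcagccactcTGACTCAttcactttggg
Both LAMA3 stretches overlap an exon annotated in GENCODE, and the LAMB3 stretch does not. A match of letters describes the sequence and shows no binding. Of the other elements searched on both strands, that of TEAD (GGAATG, in 11.9% of all windows) was in 1 ITGB1 window. Those of E2F (TTTGGCGC or TTTCCCGC, 1.93%) and NF-kB (0.527%) were in none of the 12. The SP1 element GGGCGG, in 42.6% of all windows, was found for LAMA3, LAMB3, ITGA2, ITGA6 and ITGB1.

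The laminin chains were highest in the erlotinib libraries with shRNA and lowest in those without it. LAMA3, the alpha chain and the one that integrins bind, stood at 62.7 (55.1 to 71.0) in untreated and 99.7 (83.2 to 118) in scrambled cells, 42.3 (29.8 to 58.4) with CPI-455, 187 (167 to 209.8) with KDM5A shRNA, 176 (147 to 209.7) in the library labelled KDM5A and KDM5B shRNA and, for KDM5A cDNA, 54.2 (37.1 to 76.6) CPM. LAMB3, the beta chain, stood at 133 (122 to 145) untreated, 107 (89.6 to 126) scrambled, 54.9 (40.5 to 72.8) under CPI-455, 163 (144 to 185) under KDM5A shRNA, 205 (174 to 241) in the library labelled KDM5A and KDM5B shRNA and 81.3 (60.0 to 108) under KDM5A cDNA. For each chain both shRNA libraries lay above untreated and scrambled cells, and CPI-455 and KDM5A cDNA lay below them. Scrambled cells lay above untreated cells for LAMA3, at a log2 ratio of 0.67 (0.35 to 0.98), and below them for LAMB3, at -0.32 (-0.60 to -0.051). In the order of LAMA3 the shRNA libraries did not differ beyond counting error, at a ratio of 1.06 (0.861 to 1.32), nor did untreated cells and KDM5A cDNA at 1.16 (0.798 to 1.73) or KDM5A cDNA and CPI-455 at 1.28 (0.772 to 2.11). In that of LAMB3 the same held for scrambled cells and KDM5A cDNA at 1.31 (0.937 to 1.86) and for KDM5A cDNA and CPI-455 at 1.48 (0.972 to 2.26). For each LAMA3 UMI there were 2.13 LAMB3 UMIs in untreated cells (1.83 to 2.49) and 0.873 with KDM5A shRNA (0.737 to 1.03).

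**Figure D1:**
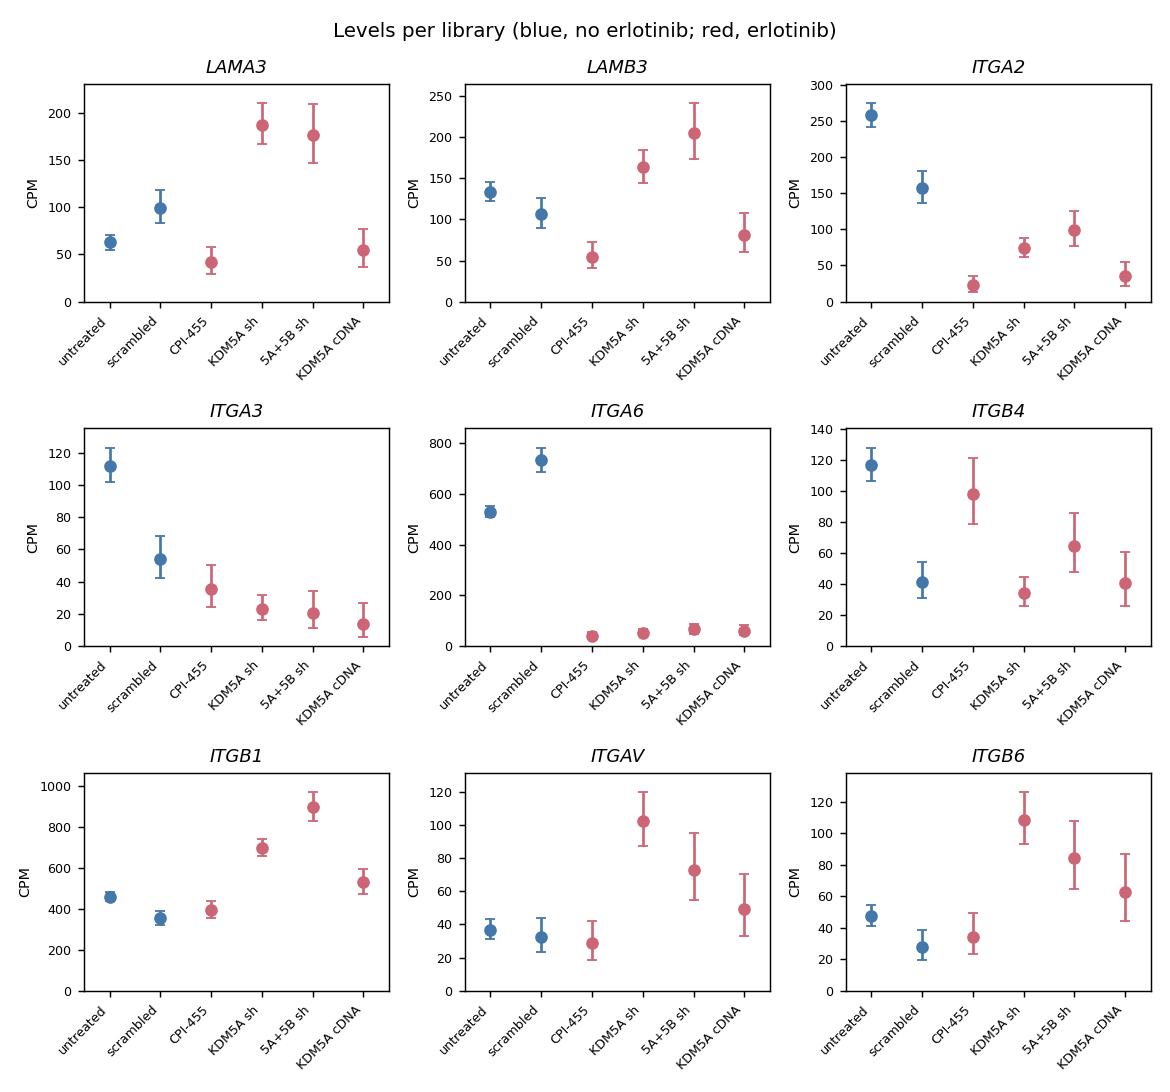
Level of each of the 9 genes in CPM (y axis, from 0, own scale per gene) in the 6 libraries (x axis; sh, shRNA; 5A+5B sh, the library labelled KDM5A and KDM5B shRNA), with exact 95% counting intervals. ITGA6 is at 530.2 and 734 without erlotinib and between 40.1 and 67.5 with it, while LAMA3 and LAMB3 differ among the erlotinib libraries.

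The alpha subunits of laminin receptors were low in every erlotinib library. ITGA6 stood at 530.2 (508 to 553) in untreated and 734 (688 to 782) in scrambled cells, 40.1 (27.9 to 55.7) with CPI-455, 53.9 (43.1 to 66.5) with KDM5A shRNA, 67.5 (49.9 to 89.3) in the library labelled KDM5A and KDM5B shRNA and, for KDM5A cDNA, 61.0 (42.7 to 84.5) CPM. All 4 erlotinib libraries lay below both drug-free ones, and the share of all tested genes that did so was not computed. Under CPI-455 8 of 35 UMIs came from 1 cell, without which the level was 31.4 CPM. No neighbours in the order of the 4 erlotinib libraries differed beyond counting error. ITGA3 stood at 112 (102 to 123) untreated, 54.1 (42.2 to 68.3) scrambled, 35.5 (24.1 to 50.4) under CPI-455, 23.2 (16.3 to 31.9) under KDM5A shRNA, 20.7 (11.6 to 34.1) in the library labelled KDM5A and KDM5B shRNA and 13.6 (5.85 to 26.7) under KDM5A cDNA. The erlotinib libraries were again the lowest, but scrambled cells and CPI-455, neighbours in the order, did not differ beyond counting error at a ratio of 1.52 (0.985 to 2.41), and the KDM5A cDNA level rested on 8 UMIs. ITGB1 UMIs per ITGA3 UMI went from 4.10 in untreated and 6.54 in scrambled cells to between 11.1 and 43.5 with erlotinib.

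ITGA2, the alpha subunit of the collagen receptor, was low with erlotinib to unequal degrees. It stood at 258 (242 to 274) in untreated and 158 (137 to 181) in scrambled cells, 22.9 (14.0 to 35.4) with CPI-455, 73.9 (61.2 to 88.5) with KDM5A shRNA, 99.2 (77.6 to 125) in the library labelled KDM5A and KDM5B shRNA and, for KDM5A cDNA, 35.6 (22.0 to 54.4) CPM. All 4 erlotinib libraries lay below both others, an order for which the share of all tested genes was not computed. Within them both shRNA libraries lay above KDM5A cDNA and CPI-455. The KDM5A cDNA level rested on 21 UMIs, 7 of them in 1 cell, and was 24.0 CPM without that cell. Under CPI-455 it rested on 20 UMIs, 4 of them in 1 cell, and was 18.5 CPM without it.

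ITGB4, the partner of ITGA6 in hemidesmosomes, had another order. It stood at 117 (106 to 128) in untreated and 41.7 (31.3 to 54.4) in scrambled cells, 98.4 (78.7 to 122) with CPI-455, 34.5 (26.0 to 44.8) with KDM5A shRNA, 64.8 (47.6 to 86.1) in the library labelled KDM5A and KDM5B shRNA and, for KDM5A cDNA, 40.7 (26.1 to 60.5) CPM. Untreated cells and CPI-455, the libraries without virus and in 5% serum, were the highest, with a ratio to each other of 1.19 (0.941 to 1.51), and all 4 transduced libraries lay below them. Per ITGA6 UMI there were 0.220 ITGB4 UMIs in untreated and 0.0568 in scrambled cells, against 2.46 with CPI-455, 0.640 with KDM5A shRNA, 0.959 in the library labelled KDM5A and KDM5B shRNA and 0.667 under KDM5A cDNA.

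ITGB1, the beta subunit shared by the collagen and most laminin receptors, was highest in the transduced erlotinib libraries. It stood at 459 (438 to 481) in untreated and 354 (322 to 388) in scrambled cells, 395 (354 to 439) with CPI-455, 700.3 (659.9 to 743) with KDM5A shRNA, 898 (831 to 970.0) in the library labelled KDM5A and KDM5B shRNA and, for KDM5A cDNA, 532 (475 to 594) CPM. These 3 libraries lay above both drug-free libraries, and CPI-455 lay between the drug-free ones. All neighbours in this order differed beyond counting error apart from CPI-455 and scrambled cells, at 1.12 (0.968 to 1.29). A processed copy of the gene, ITGB1P1, was listed on its own at between 6.18 and 23.4, and how shared reads were divided between the copies is not given in the sources used here.

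The fibronectin receptor pair was also highest in the erlotinib libraries with shRNA. ITGAV stood at 36.9 (31.2 to 43.4) in untreated and 32.4 (23.4 to 43.9) in scrambled cells, 28.6 (18.5 to 42.2) with CPI-455, 103 (87.6 to 119.7) with KDM5A shRNA, 73.0 (54.7 to 95.5) in the library labelled KDM5A and KDM5B shRNA and, for KDM5A cDNA, 49.1 (32.9 to 70.6) CPM. ITGB6 stood at 47.3 (40.7 to 54.5) untreated, 27.8 (19.5 to 38.5) scrambled, 34.3 (23.2 to 49.0) under CPI-455, 108 (92.8 to 126) under KDM5A shRNA, 84.0 (64.3 to 108) in the library labelled KDM5A and KDM5B shRNA and 62.7 (44.1 to 86.4) under KDM5A cDNA. Both genes had KDM5A shRNA, the library labelled KDM5A and KDM5B shRNA, KDM5A cDNA and untreated cells as the first 4 in order. Of the neighbouring steps of both genes only the first of ITGAV, at a ratio of 1.41 (1.03 to 1.96), was beyond counting error. ITGB6 UMIs per ITGAV UMI were between 0.857 in scrambled and 1.28 in untreated cells.

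The 4 erlotinib libraries were compared with the 2 drug-free libraries by edgeR's quasi-likelihood test over 10445 genes with Benjamini-Hochberg adjustment. ITGA6, ITGA3 and ITGA2 fell, 3 of the 9 genes, where 13.5% of all tested genes were called lower at an adjusted p under 0.05. None of the 9 was called higher, where 10.0% of all tested genes were. The edgeR log2 fold was -3.48 (SE 0.25, adjusted p 5.62e-05) for ITGA6, -1.78 (SE 0.34, adjusted p 0.00521) for ITGA3 and -1.78 (SE 0.47, adjusted p 0.0290) for ITGA2, each lower in 4 of 4 erlotinib libraries than in both others. ITGB6 at 0.99 (SE 0.42, adjusted p 0.115), ITGAV at 0.94 (SE 0.44, adjusted p 0.144) and ITGB1 at 0.68 (SE 0.31, adjusted p 0.138) did not pass in edgeR, with 3 of 4 erlotinib libraries above both others. Nor did LAMA3 at 0.58 (SE 0.63, adjusted p 0.536), LAMB3 at 0.13 (SE 0.46, adjusted p 0.866) and ITGB4 at -0.40 (SE 0.46, adjusted p 0.557). The share of all tested genes with 4 of 4 or 3 of 4 erlotinib libraries beyond both others was not computed, so these orders only describe the genes. At an unadjusted p under 0.05 edgeR had 1 of the 9 higher, DESeq2 3 and limma-voom 0, and with adjustment each of these tools called 0 higher and 3 lower. The shares above hold for edgeR with adjustment, and no share of all tested genes is given for the other counts. The median log2 fold was 0.13 over the 9 genes and 0.0068 over all tested genes.

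**Figure D2:**
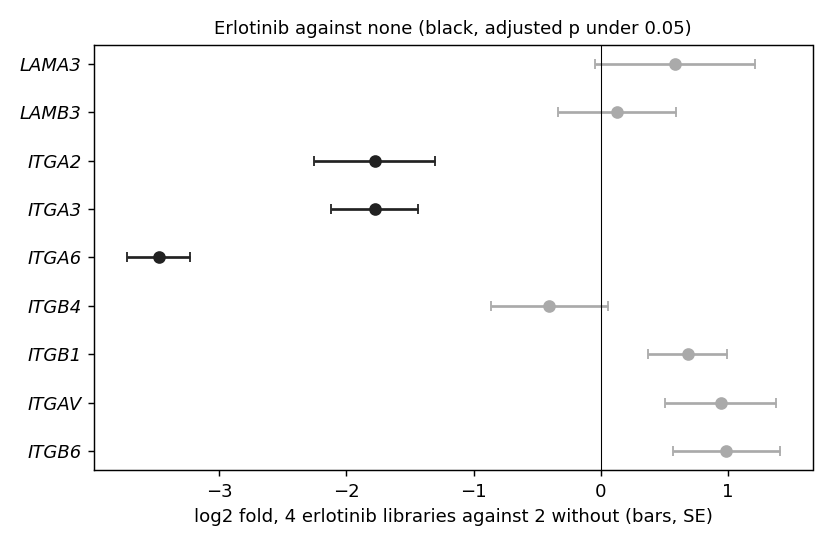
Log2 fold of the 9 genes between the 4 erlotinib libraries and the 2 without erlotinib (x axis, points with SE bars), with the genes past an adjusted p of 0.05 set apart by colour. ITGA6 is lowest at -3.48, followed by ITGA3 and ITGA2, and no gene passes as higher.

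These libraries are not replicates of 1 condition, so the p-values set erlotinib with a KDM5 manipulation against the spread between unlike libraries. The edgeR call of ITGA2 ended without untreated cells (adjusted p 0.185), without scrambled cells (0.0763), without KDM5A cDNA (0.0646) and among transduced libraries (0.127), and that of ITGA3 ended without untreated cells (0.0754). Without CPI-455, edgeR called ITGB6 (adjusted p 0.0260), ITGAV (0.0309) and ITGB1 (0.0497) higher. The share of all tested genes called higher without CPI-455 is not given here, so these calls only describe the genes. The range of calls over all genes with single libraries left out is given in the last section. The call of ITGA6 held in the 16 alternatives run, at log2 folds from -3.74 to -3.20. With virus as a further term, 0 of 10445 genes were called for virus by edgeR, 648 had an unadjusted p under 0.05, and ITGA3, ITGA6, ITGB4 and LAMA3 were among these.

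The share of cells with UMIs of cell cycle genes differed between the libraries. Cells without a UMI of 72 listed S and G2/M genes, after thinning to 1000 UMIs, made up 5.47% of untreated and 1.80% of scrambled cells, and between 34.3% and 50.9% with erlotinib. In these cells ITGA6 stood at 634 (521 to 765) CPM untreated (from 45 cells), 526 (333 to 789) scrambled (from 4 cells), 20.3 (7.44 to 44.1) under CPI-455, 58.7 (42.6 to 78.8) under KDM5A shRNA, 63.0 (39.0 to 96.2) in the library labelled KDM5A and KDM5B shRNA and 60.9 (32.4 to 104) under KDM5A cDNA. The untreated level was 1.20 times that of the other untreated cells (0.980 to 1.46), and the log2 fold with erlotinib in these cells was -3.36 (edgeR adjusted p 0.000660). The gap in ITGA6 was thus present among cells whose 1000 drawn UMIs held none of the 72 genes. These levels and the fit used all UMIs of such cells, which may include cycle UMIs. The filter therefore does not set non-dividing cells apart, and the part of the cell cycle in the gap was not tested. For ITGA2 and ITGA3 the edgeR call ended in these cells, at adjusted p of 0.0604 and 0.159.

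Pairs of single libraries cannot be tested, and for them the genes at 2-fold or beyond were counted among those averaging 25 CPM or more in the pair. The median log2 ratio of all such genes was between -0.12 and 0.049 in the 8 pairs. Scrambled and untreated cells differ by virus and serum, with no erlotinib in either. Here 2 of 9 genes were lower and 0 higher, where 4.55% and 2.27% of all genes were. The lower ones were ITGB4 at a log2 ratio of -1.48 (-1.92 to -1.08) and ITGA3 at -1.05 (-1.43 to -0.68). ITGA6 at 0.47 (0.36 to 0.58) and LAMA3 at 0.67 (0.35 to 0.98) were the genes above 0.

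CPI-455 with erlotinib stood below untreated cells for all 9 genes, and the share of all genes below 0 was not computed. The intervals of ITGAV at -0.37 (-1.04 to 0.25), ITGB6 at -0.46 (-1.07 to 0.10) and ITGB4 included 0. Of the 9 genes 4 were past 2-fold lower and 0 higher, where 13.9% and 10.9% of all genes were. ITGA6 had a log2 ratio of -3.73 (-4.25 to -3.25), ITGA2 of -3.49 (-4.21 to -2.86), ITGA3 of -1.66 (-2.23 to -1.13) and LAMB3 of -1.28 (-1.74 to -0.85). Smallest were the differences of ITGB1 at -0.22 (-0.39 to -0.05) and ITGB4 at -0.25 (-0.60 to 0.088). The median was -0.57 over the 9 genes and -0.12 over all.

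KDM5A shRNA with erlotinib, set against scrambled cells, had genes on both sides. ITGA6 at -3.77 (-4.10 to -3.45), ITGA3 at -1.22 (-1.84 to -0.63) and ITGA2 at -1.09 (-1.43 to -0.76) made 3 of 9 lower, where 15.9% of all genes were. ITGB6 at 1.96 (1.44 to 2.52) and ITGAV at 1.66 (1.17 to 2.19) made 2 of 9 higher, where 11.8% were. ITGB1 at 0.98 (0.83 to 1.15), LAMA3 at 0.91 (0.61 to 1.22) and LAMB3 at 0.62 (0.31 to 0.93) were above 0 and short of 2-fold.

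In the library labelled KDM5A and KDM5B shRNA, ITGA6 at -3.44 (-3.89 to -3.03) and ITGA3 at -1.39 (-2.30 to -0.57) made 2 of 9 lower than in scrambled cells, where 17.9% of all genes were. ITGB6 at 1.60 (0.98 to 2.23), ITGB1 at 1.34 (1.17 to 1.52) and ITGAV at 1.17 (0.56 to 1.79) made 3 of 9 higher, where 13.8% were. LAMB3 at 0.95 (0.60 to 1.29), LAMA3 at 0.82 (0.46 to 1.19) and, on the lower side, ITGA2 at -0.67 (-1.08 to -0.27) were short of 2-fold. Set directly against KDM5A shRNA, 0 of the 8 genes at that level were higher and 0 lower, where 3.43% and 0.972% of all genes were, and the widest difference was that of ITGB4 at 0.91 (0.32 to 1.5).

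KDM5A cDNA with erlotinib had 3 of the 4 alpha subunits lower than scrambled cells, without the laminin chains being higher. ITGA6 at -3.59 (-4.11 to -3.11), ITGA2 at -2.15 (-2.87 to -1.5) and ITGA3 at -2.0 (-3.26 to -0.94) made 3 of 9 lower, where 15.7% of all genes were. ITGB6 at 1.17 (0.47 to 1.88) made 1 of 9 higher, where 12.9% were. The remaining alpha subunit, ITGAV, stood at 0.60 (-0.14 to 1.32). LAMA3 stood at -0.88 (-1.48 to -0.31) and LAMB3 at -0.39 (-0.90 to 0.093). These 3 comparisons share the scrambled library and are not independent.

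**Figure D3:**
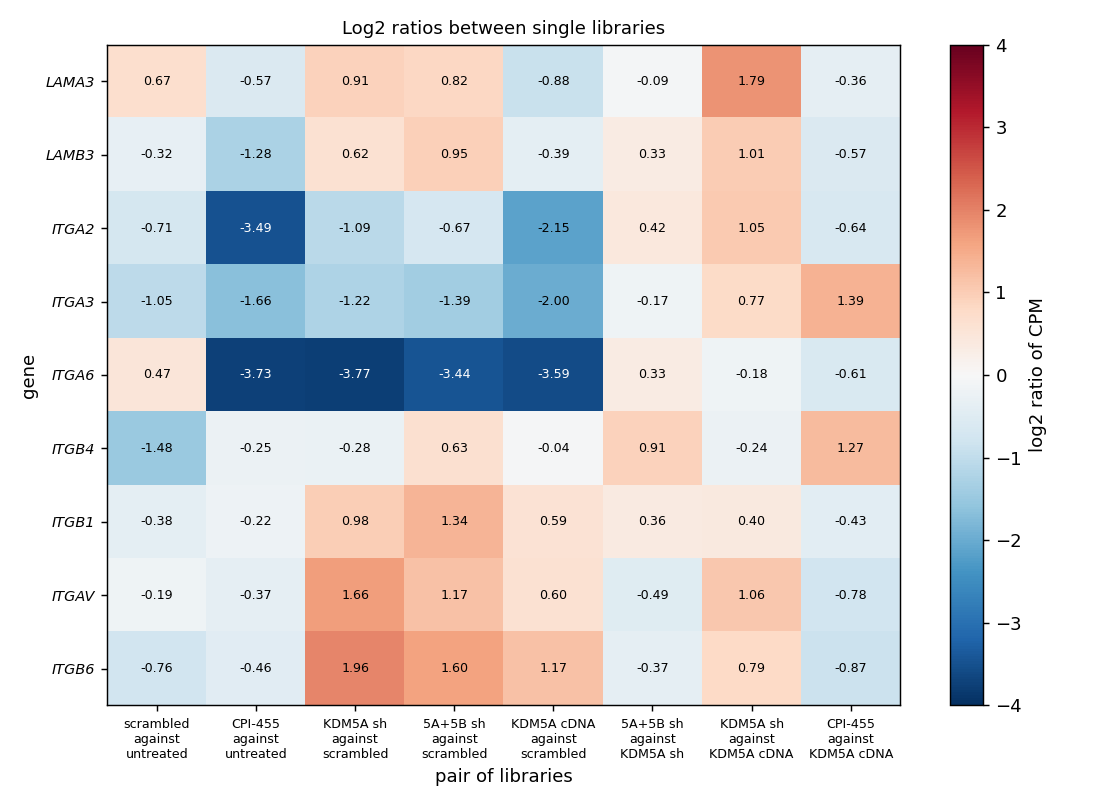
Log2 ratio of CPM for each gene (rows) in 8 pairs of single libraries (columns; sh, shRNA; 5A+5B sh, the library labelled KDM5A and KDM5B shRNA), printed and coloured by size and direction. ITGA6 lies between -3.77 and -3.44 in the 4 pairs that set erlotinib against a drug-free library. In these pairs LAMA3 is above 0 in both erlotinib libraries with shRNA and below 0 with CPI-455 and KDM5A cDNA.

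Within the erlotinib libraries LAMA3 differed widely. It was 3.45 (2.39 to 5.14) times as high with KDM5A shRNA as with KDM5A cDNA, and 4.42 (3.14 to 6.4) times as high as with CPI-455. In the library labelled KDM5A and KDM5B shRNA the ratios to the same libraries were 3.25 (2.19 to 4.95) and 4.16 (2.87 to 6.18). For LAMB3 the 4 ratios in this order were 2.01 (1.47 to 2.79), 2.98 (2.18 to 4.14), 2.52 (1.81 to 3.57) and 3.74 (2.68 to 5.29). KDM5A shRNA against KDM5A cDNA had 4 of 8 genes higher, LAMA3, ITGAV, ITGA2 and LAMB3, and 0 lower, where 4.61% and 8.25% of all genes were. The log2 ratios of ITGAV at 1.06 (0.49 to 1.69), ITGA2 at 1.05 (0.38 to 1.80) and LAMB3 at 1.01 (0.56 to 1.48) were close to the 2-fold limit. The count of higher genes was 2 without the mitochondrial limit, 2 in cells of 1000 UMIs or more and 2 after thinning to 1000 UMIs. The share of all genes was not computed in these settings. CPI-455 against KDM5A cDNA had 1 of 8 genes higher, ITGB4 at 1.27 (0.61 to 1.99), and 0 lower, where 4.06% and 2.08% were. Both shRNA libraries lay above both CPI-455 and KDM5A cDNA for 6 of the 9 genes, ITGA2, ITGAV, ITGB1, ITGB6, LAMA3 and LAMB3, and below both for 0, where 20.5% and 23.4% of tested genes did so. That count was chosen after the values were seen, and vector, day and KDM5 manipulation cannot be told apart in it.

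Single cells showed how widely each gene was found. After thinning to 1000 UMIs, which left out between 26 and 344 shallower cells per library, an ITGA6 UMI was found in 36.6% (33.3% to 40.0%) of 822 untreated and 52.7% (45.9% to 59.4%) of 222 scrambled cells. With erlotinib it was found in 3.05% (0.997% to 6.97%) of cells under CPI-455, 4.82% (2.78% to 7.71%) under KDM5A shRNA, 8.06% (3.94% to 14.3%) in the library labelled KDM5A and KDM5B shRNA and 6.67% (2.72% to 13.3%) under KDM5A cDNA. The unthinned shares were 55.6%, 78.7%, 10.9%, 15.8%, 20.4% and 19.8% in the same order. ITGA6 was thus found in fewer cells of every erlotinib library. No cell type here should lack the gene, so the part of free RNA in these shares was not tested.

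LAMA3 was found in more cells of the erlotinib libraries with shRNA. Its thinned shares were 4.87% untreated, 7.21% scrambled, 3.05% under CPI-455 and 5.71% under KDM5A cDNA, against 16.0% (12.2% to 20.4%) under KDM5A shRNA and 18.5% (12.1% to 26.5%) in the library labelled KDM5A and KDM5B shRNA. Its top KDM5A shRNA cell held 23 of 299 UMIs, and without it the level was 176 CPM. The unthinned LAMA3 shares were 13.7%, 30%, 13.9%, 39.6%, 41.4% and 19.1% from untreated to KDM5A cDNA. ITGB1 was found after thinning in 32.6% of untreated, 27.9% of scrambled, 32.9% of CPI-455, 48.2% of KDM5A shRNA and 40.0% of KDM5A cDNA cells, and in 54.0% in the library labelled KDM5A and KDM5B shRNA. Without thinning these ITGB1 shares were 51.7%, 60.8%, 65.3%, 74.3%, 70.2% and 79.6%.

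LAMB3 had a UMI after thinning in 12.4% of untreated, 10.4% of scrambled, 4.27% of CPI-455, 14.2% of KDM5A shRNA and 8.57% of KDM5A cDNA cells, and in 22.6% in the library labelled KDM5A and KDM5B shRNA, and without thinning in 24.5%, 30%, 19.8%, 40.4%, 22.1% and 50.7%. ITGA2 had one after thinning in 21.7% of untreated, 11.7% of scrambled, 1.83% of CPI-455, 8.73% of KDM5A shRNA and 3.81% of KDM5A cDNA cells, and in 12.1% in the library labelled KDM5A and KDM5B shRNA, and without thinning in 36.6%, 39.9%, 5.45%, 22.2%, 8.4% and 28.9%. After thinning, the library labelled KDM5A and KDM5B shRNA came first for LAMB3 and untreated cells for ITGA2, as in the CPM. The rest of the ITGA2 order differed. Its thinned share in the library labelled KDM5A and KDM5B shRNA, 12.1%, was not below the 11.7% of scrambled cells, though its CPM was, at 99.2 against 158.

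**Figure D4:**
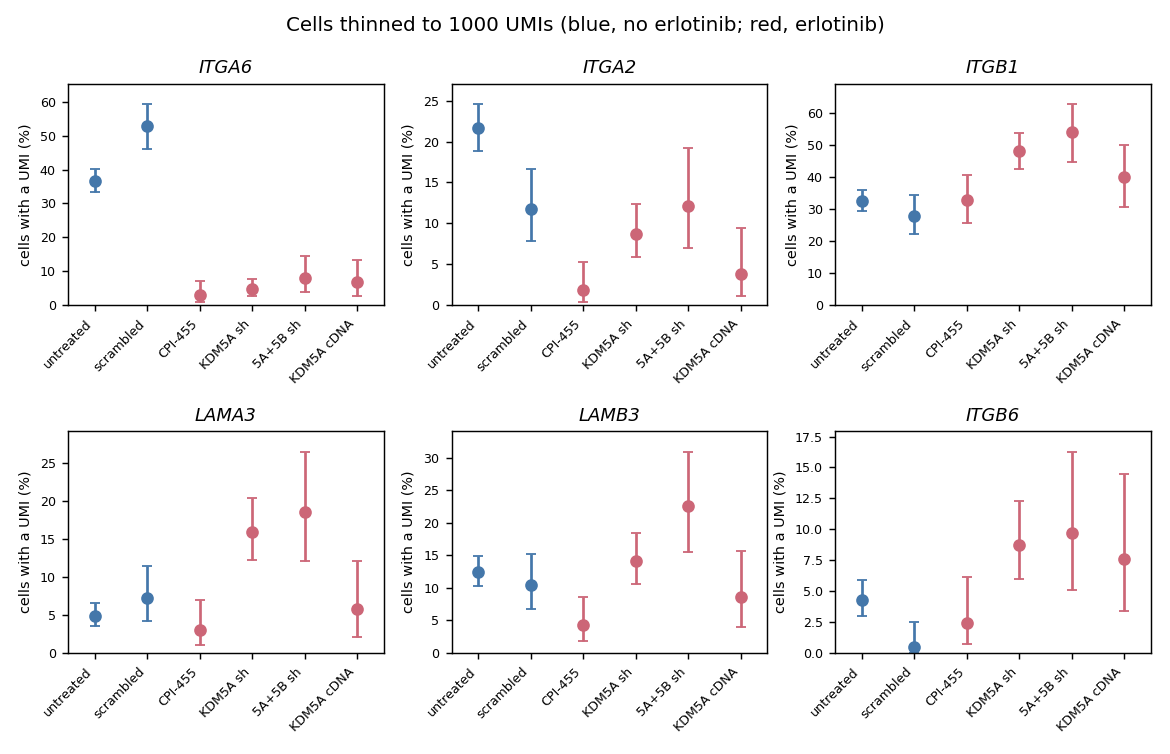
Share of cells with at least 1 UMI (y axis, percent, from 0) of 6 of the genes in the 6 libraries (x axis), after thinning every cell to 1000 UMIs, with exact 95% binomial intervals. ITGA6 is found in 36.6% and 52.7% of cells without erlotinib and in at most 8.06% with it.

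The share of thinned cells with UMIs of both genes of a pair was set beside the product of their shares. In untreated cells 13.9% held both ITGA6 and ITGB1, with a product of 11.9%, and 4.38% held both ITGA6 and ITGB4, with a product of 4.68%. With KDM5A shRNA 9.04% held ITGB1 and LAMA3, with a product of 7.69%. Some pairs lay farther from the product on few cells. In scrambled cells 7 cells, or 3.15%, held ITGA6 and ITGB4 against a product of 1.66%, and 7 cells held ITGA2 and LAMA3 against 0.844%. Under CPI-455 1 cell, or 0.610%, held ITGB1 and ITGB4 against 2.81%. Across cells, all points sharing 1 library, Pearson r was between -0.035 and 0.086 wherever at least 20 cells held both, too weak in such sparse counts to read. No UMI of any of the 9 genes was left after thinning in 22.5% of untreated, 27.0% of scrambled, 50% of CPI-455, 26.2% of KDM5A shRNA and 45.7% of KDM5A cDNA cells, and in 16.1% in the library labelled KDM5A and KDM5B shRNA.

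Other adhesion genes were read in the same edgeR fit, with values as log2 folds, from lists drawn up with results of the series known. Their counts stand beside 10.0% called higher and 13.5% called lower over all tested genes. Of 19 other integrin subunits 4 were tested. ITGB5, a further partner of ITGAV, fell by 2.03 (SE 0.31, adjusted p 0.00148), and ITGB8, which with ITGAV also activates TGF-beta, rose by 1.62 (SE 0.28, adjusted p 0.00291) by edgeR. ITGAE stood at -0.07 (SE 0.26, adjusted p 0.866) and did not pass. Of 9 other laminin chains 4 were tested and 0 passed in edgeR, DESeq2 or limma-voom, with 1 at an unadjusted p under 0.05 in edgeR and 0 in the others. LAMB1 stood at 0.20, LAMA5 at 0.026 and LAMC1 at 0.36. The medians were -0.30 and 0.28.

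Of 8 hemidesmosome and tetraspanin partners 7 were tested, of which 2 rose, against 10.0% of all tested genes. No member of this list or of the next fell in edgeR, DESeq2 or limma-voom, and 0 were lower at an unadjusted p under 0.05. DST, whose epithelial form links ITGB4 to keratins, rose by 1.05 (SE 0.28, adjusted p 0.0246) by edgeR, from 361 and 188 CPM without erlotinib to between 457 and 643 with it. CD82, a tetraspanin, rose by 1.64 (SE 0.46, adjusted p 0.0284) by edgeR. Its KDM5A cDNA level of 11.9 CPM did not lie above the 12.4 of untreated cells. The tetraspanins CD9 at 0.59 and CD63 at 0.32 did not pass. Of 19 other matrix ligands 10 were tested and 2 rose, against the same 10.0%. TGFB2, a TGF-beta ligand, rose by 3.0 (SE 0.47, adjusted p 0.00263) and FN1, or fibronectin, by 3.44 (SE 0.88, adjusted p 0.0302) by edgeR, but FN1 did not pass in limma-voom. FN1 stood at 12.6 untreated, 8.50 scrambled, 35.5 under CPI-455, 227 under KDM5A shRNA, 145 in the library labelled KDM5A and KDM5B shRNA and 42.4 CPM under KDM5A cDNA. SPP1 at -0.11, THBS1 at 0.56 and TGFB1, another TGF-beta ligand, at -0.13 did not pass.

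Of 22 integrin activators, adaptors and inhibitors 20 were tested, of which 4 rose and 3 fell, against 10.0% and 13.5% of all tested genes. FERMT1, the kindlin of epithelia, fell by 2.20 (SE 0.30, adjusted p 0.000795), and FERMT2, a kindlin of wider expression, rose by 1.74 (SE 0.41, adjusted p 0.0134) by edgeR. ZYX, TNS3 and ILK, of focal adhesions, rose by 1.18, 1.06 and 0.97. ITGB1BP1, which encodes an inhibitor bound to the ITGB1 tail, fell by 1.22, and PARVB by 2.11 (SE 0.64, adjusted p 0.0417) by edgeR. PARVB was 28.8 CPM under KDM5A cDNA, near the 29.8 of untreated cells, and between 3.43 and 6.89 in the other erlotinib libraries. ACTN4, ACTN1 and VCL, which couple integrins to actin, stood at 0.15, 1.00 and 0.84 and did not pass. The medians of the last 3 lists were 0.66, 0.60 and 0.15.

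**Figure D5:**
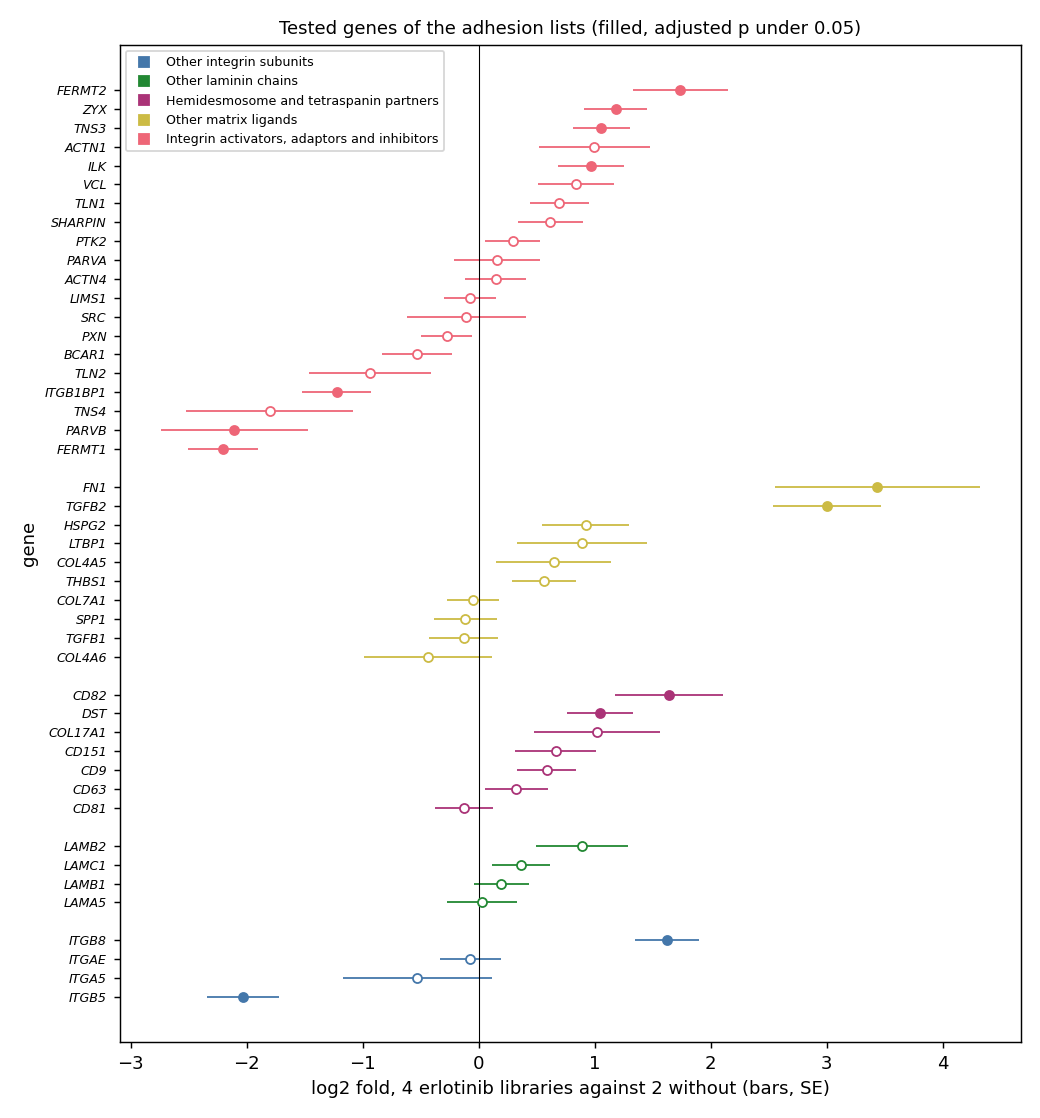
Log2 fold with erlotinib (x axis, points with SE bars) of the tested genes of 5 adhesion lists (y axis, coloured by list), filled where the adjusted p is under 0.05. FN1 and TGFB2 stand highest at 3.44 and 3.0, and FERMT1, PARVB and ITGB5 stand lowest at -2.20, -2.11 and -2.03.

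For the laminin, alpha and beta gene with the most UMIs, the most alike genes were sought among 3638 genes averaging 50 CPM or more, by Pearson r of log2(CPM + 1) over the 6 libraries. For LAMB3 they were EHF (r 0.987), MYL6B (r 0.983) and PAK1 (r 0.979). For ITGA6 they were FARSB (r 0.998), H2AFZ (r 0.997) and GMNN (r 0.997). For ITGB1 they were MSRB2 (r 0.988), MED19 (r 0.988) and XPC (r 0.976). H2AFZ, a variant histone, and GMNN, which restrains replication licensing, are known from dividing cells. Over 6 libraries such values only describe these libraries.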

How the data were processed

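The deposited tables hold counts, whole UMIs per gene symbol and barcode, which the values show were not normalized. The submitters' processing notes name STAR, FastQC, GRCh37.p13 and hg19. Versions, the counting tool and the choice of barcodes are not given in the sources used here. UMIs were summed over kept cells and tested with edgeR 4.0.16 (TMM, filterByExpr, robust quasi-likelihood fit), with DESeq2 1.42.0 and limma 3.58.1 (voom) as alternatives. The SE is the log2 fold over the root of its F statistic, and the common coefficient of biological variation was 26.2%. The fit was tested on simulated data in which all genes shared 1 dispersion and the libraries of a group were replicates. The erlotinib libraries are not replicates, so that test does not cover this design. Ratios between libraries carry conditional Clopper-Pearson intervals, and shares of cells exact binomial ones. Thinning drew UMIs without replacement. Doublets were not called, since those of 1 line look alike. PLEC was not analysed here, and 1 listed gene is not reported here. The naming rules were all 9, the 3 genes of each list with the most UMIs and the 3 most alike genes. The 9 genes, the lists and these rules were chosen with earlier results of these data known. Further list genes are named because they passed, and TGFB1 as a ligand beside TGFB2. Alternatives were other size factors and tools, no filter, each library left out, a virus term, transduced libraries only, thinning, other limits on cells, and cells without cycle UMIs.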

Additional observations from a re-analysis of the deposited data

Results flagged for a closer look

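Barcodes with fewer than 500 UMIs, which enter none of the comparisons above, also held UMIs of the 9 genes, more than the 3 that a count of 0 allows. Over the 6 libraries these were 242 UMIs of ITGA6, 226 of ITGB1, 83 of ITGA2, 57 of LAMB3, 51 of LAMA3, 48 of ITGA3, 43 of ITGB4, 25 of ITGB6 and 21 of ITGAV. Of those of ITGA6, 175 lay in untreated and 60 in scrambled barcodes, or 693 and 611 CPM within such barcodes. In each erlotinib library at most 3 were found. Whether such barcodes hold small cells or free RNA was not tested.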

How the results depend on the processing

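The edgeR call of ITGA6 held under all 16 alternatives, and those of ITGA3 and ITGA2 under 14 and 11. Leaving out 1 library at a time, all genes called higher ranged from 500 to 1176 and lower from 860 to 1341, against 1046 and 1412. The fewest higher came without untreated cells and the fewest lower without scrambled cells. Of the 9 genes, 0 to 3 were then higher and 1 to 3 lower, with 3 higher without CPI-455 and 1 lower without untreated cells. Higher and lower counts of all genes were 479 and 856 in transduced libraries only, 463 and 526 after thinning to 1000 UMIs and 66 and 33 in cells without cycle UMIs. Of the 9 genes 1 was higher in transduced libraries (ITGB6), 1 after thinning (ITGAV), and 1 lower in cells without cycle UMIs (ITGA6). The log2 fold of LAMB3, 0.13, turned to -0.049 in limma-voom, -0.20 with virus as a term and -0.28 in cells without cycle UMIs. It ranged from -0.19 to 0.38 with 1 library left out, at -0.0054 without scrambled cells, -0.033 without KDM5A shRNA and -0.19 without the library labelled KDM5A and KDM5B shRNA. That of ITGB4 ranged from -0.93 to 0.48, the highest without untreated cells, and was 0.14 in transduced libraries. Over all alternatives LAMA3, at 0.58, lay between 0.12 with virus as a term and 1.08 after thinning, at 0.22 without untreated cells, 0.22 without KDM5A shRNA, 0.33 without the library labelled KDM5A and KDM5B shRNA and 0.97 without scrambled cells. ITGAV, at 0.94, lay between 0.56 without KDM5A shRNA and 3.75 in cells without cycle UMIs. The latter value lies at the floor, since such cells held 0 ITGAV UMIs in untreated and 1 in scrambled cells. ITGB6 lay between 0.13 in cells without cycle UMIs and 1.64 in transduced libraries, and ITGB1 between 0.28 and 1.01 in the same order. ITGA2 lay between -2.27 in cells without cycle UMIs and -1.16 in transduced libraries, and ITGA3 between -2.18 without scrambled and -1.21 without untreated cells.

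Counts past 2-fold moved as follows. The share of all genes past 2-fold was not computed in these settings, so the shifts are not set against it. After thinning, the higher counts were 1 for CPI-455 against untreated, 4 and 5 for KDM5A shRNA and the library labelled KDM5A and KDM5B shRNA against scrambled, 1 between these shRNA libraries and 2 for KDM5A shRNA against KDM5A cDNA, and the lower counts were 1 in the library labelled KDM5A and KDM5B shRNA against scrambled and 4 for CPI-455 against KDM5A cDNA. In cells without cycle UMIs, of which scrambled had 4, the higher counts were 1 for scrambled against untreated, 1 and 0 for KDM5A shRNA and KDM5A cDNA against scrambled and 2 for CPI-455 against KDM5A cDNA, where 1 was lower. There ITGA3 turned to 0.39 in the library labelled KDM5A and KDM5B shRNA and ITGB6 to -0.065 with KDM5A cDNA, both against scrambled. With TMM sizes 1 gene was lower in scrambled than untreated cells. KDM5A shRNA against KDM5A cDNA had 2 higher without the mitochondrial limit and 2 with cells of 1000 UMIs or more, and CPI-455 against KDM5A cDNA had 2 at a mean of 10 CPM. The cause of these shifts was not tested. No paired analysis was possible because each condition had 1 library and the labels give no replicate numbers. Depth limits the smaller libraries most, where 3 counts equal 5.08 CPM in KDM5A cDNA and 0.758 in untreated cells.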
